A study of Mus musculus with 2 samples.

Results

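The genes described here are 33 genes of mitochondrial and peroxisomal fatty acid oxidation, taken by symbol from the expression tables of 2 libraries of mouse lung epithelial cells that list 15113 genes in all. The members are 28 enzymes, transporters and electron carriers and 5 transcriptional regulators, and each of the 33 is listed in both tables. The sequenced RNA came from sorted lung cells that lacked CD45 (Ptprc), a surface protein of leukocytes, and carried Sftpc, the surfactant protein that marks alveolar type 2 (AT2) cells. The control library came from wild-type C57BL/6 mice aged 6 to 8 weeks without a tumour. The tumour-bearing library came from C57BL/6 mice of the same age range that had received 1000000 LLC cells under the skin of the back, a model in which tumours spread to the lung by themselves; LLC is the Lewis lung carcinoma line, here labelled with luciferase. The time between injection and sorting, the number of mice behind each library and how Sftpc was detected in the sort were not given in the sources used here. With 1 library on each side, no difference was checked against replicates, and the conditions could not be tested.

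Fatty acid oxidation breaks acyl chains down in repeated rounds of dehydrogenation, hydration, a further dehydrogenation and thiolysis. In mitochondria long acyl chains enter through the carnitine shuttle and their electrons pass through the electron-transferring flavoprotein to the respiratory chain, whereas in peroxisomes the opening step is made by acyl-CoA oxidases that hand electrons to oxygen. AT2 cells make and recycle surfactant lipid and are rich in mitochondria and peroxisomes. The genes of the pathway are regulated by the nuclear receptors of the PPAR family and their coactivators.

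Levels are RPKM, reads scaled to gene length and to the library's total, as the authors deposited them. From their digits, the control library held 5335352 reads and the tumour-bearing library 5387114, and the members held between 2 and 2713 reads each. A fold is the direct ratio of RPKM, and the range after it is the exact 95% interval given by the read numbers, which covers counting error only. AT2 markers were listed 12 of 12 in both libraries, with summed RPKM of 145031 in the control against 98061 with a tumour. That sum was mostly Sftpc (94903 and 54968 RPKM) and Lyz2 (21565 and 11436 RPKM), and the other 10 markers summed to 28564 and 31657 RPKM. Of the 12 AT2 markers 4 had a log2 ratio above 0, Sftpd by 2.04-fold among them, and the median was -0.25. AT1 markers (10 of 10 in both) summed to 1771 and 2904 RPKM, and ciliated markers (8 of 8) to 346 and 293 RPKM. All 10 AT1 markers had a log2 ratio above 0, with a median of 1.09, and 4 of the 8 ciliated markers did. Club cell markers (8 of 8) summed to 38542 and 41724 RPKM, mostly through Scgb1a1 (30142 and 35116 RPKM), while 6 of the 8 had a log2 ratio below 0 and the median was -0.45. Fibroblast markers, 8 of 10 listed in the control with Lum and Tcf21 at 0 and 10 of 10 in the tumour-bearing library, summed to 27.8 and 481 RPKM. Endothelial markers (10 of 10 in both) summed to 33.2 and 156 RPKM. Of these, 8 had a log2 ratio above 0, while Kdr (6.41 and 3.4 RPKM) and Tek (3.71 and 3.15 RPKM) had one below 0. Macrophage markers summed to 15.6 and 51.9 RPKM, with 5 and 6 of 10 listed and Adgre1, Marco and Mrc1 at 0 in both. The pan-leukocyte markers summed to 5.14 and 4.37 RPKM, with 4 and 5 of 6 listed and Cd52 at 0 in both. Of 8 adipocyte markers, Adipoq, Lep, Plin1, Cfd, Ucp1 and Retn were at 0 in both libraries. In RNA of sorted bulk cells, fewer cells of a type and less RNA per cell cannot be told apart, and the part that these other cells play in the values below was not tested.

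Most of the oxidation genes differed little between the libraries, and the few large differences were in single genes and ran in both directions. On the log2((tumour-bearing RPKM + 1)/(control RPKM + 1)) scale, the 33 members had a median of 0.24, from -2.47 for Acoxl to 1.34 for Ppargc1a. The median over the 12288 genes that reached 1 RPKM in either library, all 33 members among them, was 0.06. Cpt2 and Ppargc1a were at least 2-fold higher in the tumour-bearing library, 2 of 33 members against 9.38% of all 12288 genes. Acoxl and Ppargc1b were at least 2-fold lower, 2 of 33 against 6.53% of all genes. The counts past 2-fold were thus near those of the whole table. At 1.5-fold, 8 members were higher and 3 lower, against 19.4% and 16.1% of all genes.

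**Figure D1:**
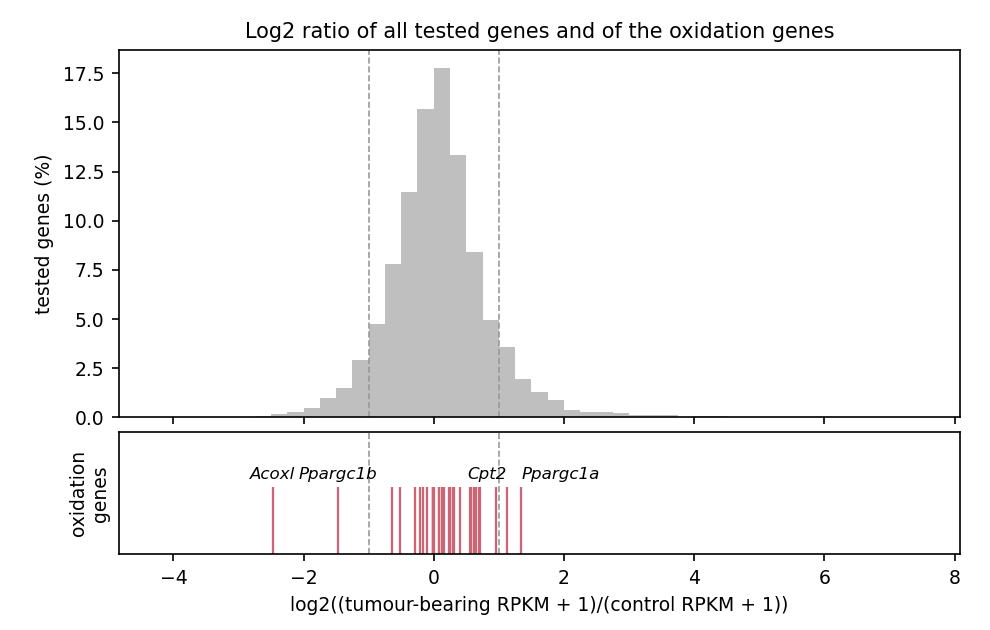
Percent of the 12288 tested genes by log2((tumour-bearing RPKM + 1)/(control RPKM + 1)) in bins of equal width (top), and the 33 oxidation genes on the same axis, 1 line each (bottom). Dashed lines mark 2-fold, and Acoxl at -2.47 and Ppargc1b at -1.47 lie to the left, Cpt2 at 1.12 and Ppargc1a at 1.34 to the right.

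The counting interval of the ratio lay wholly above 1 for 15 of the 33 members, against 33.2% of all genes with recovered reads, and wholly below 1 for 5, against 26.5%. The share of intervals that leave 1 depends on the number of reads, so these counts set no size of difference. By role, it lay above 1 for 5 of 5 carnitine genes, which are Cpt1a, Cpt2 and Slc25a20 of the shuttle with Crat and Crot. The same held for 2 of 3 electron transfer genes, 2 of 4 acyl-CoA dehydrogenase genes and 2 of 5 genes of the later mitochondrial steps. It did so for 1 of 4 auxiliary genes, 2 of 7 peroxisomal genes and 1 of 5 regulators. No test of a difference between these groups was possible. For a rescaling without Sftpc, each library's RPKM was divided by the share of its summed RPKM that was not Sftpc. It lowers the log2 of every direct RPKM ratio by 0.12. The unequal sums of all genes, 511081 RPKM in the control and 490512 RPKM with a tumour, stay in it. After this rescaling 12 intervals lay above 1 and 8 below 1.

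**Figure D2:**
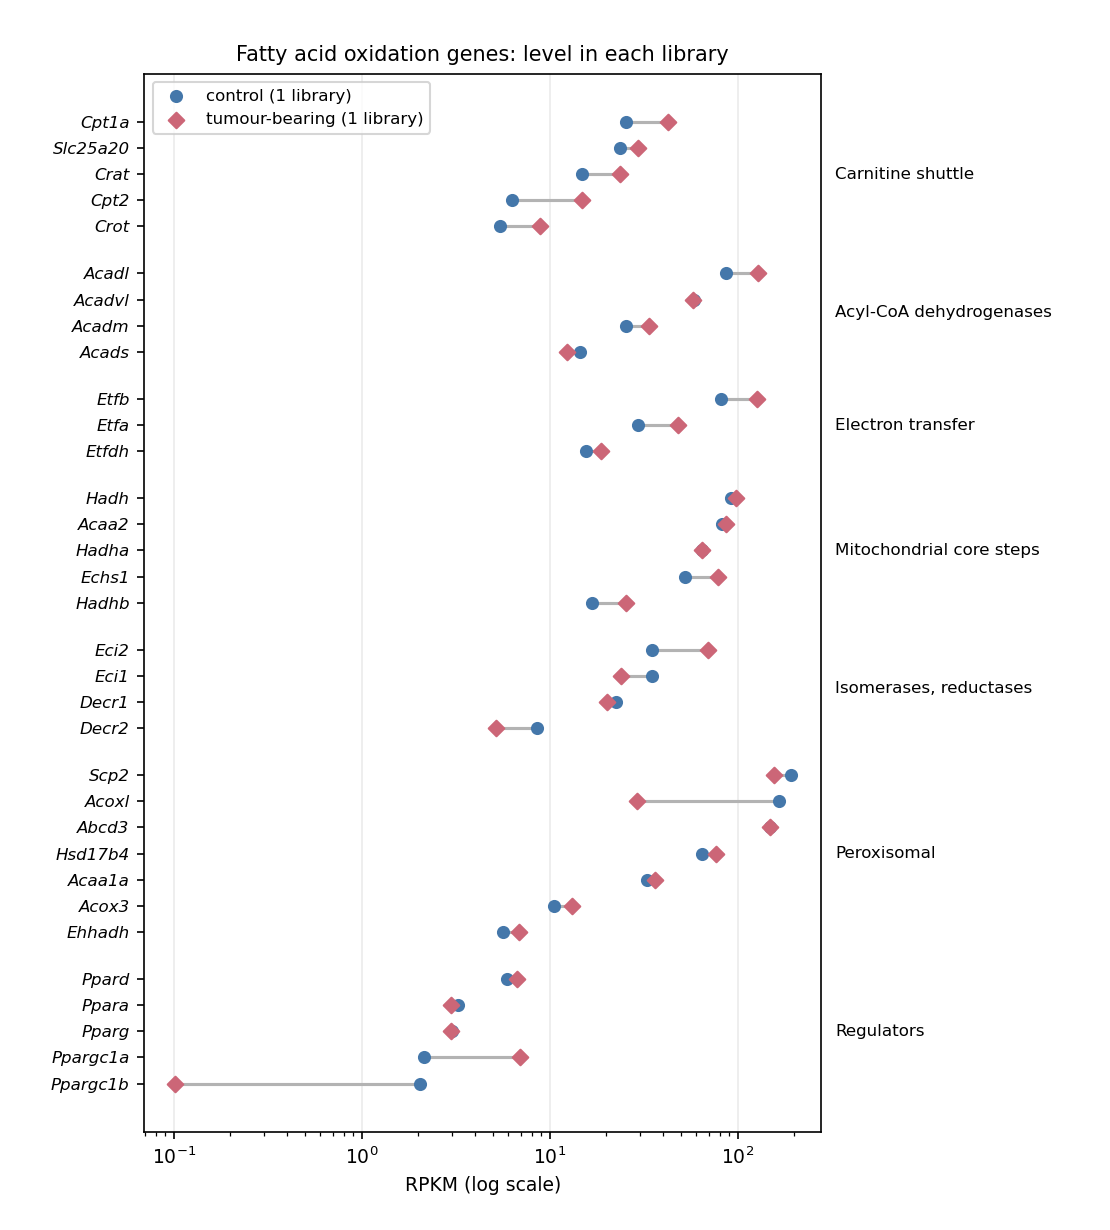
RPKM of each of the 33 genes on a log axis in the control library (circle) and the tumour-bearing library (diamond), grouped by role, with a grey line joining the 2 values. The longest lines belong to Acoxl, from 166 to 29 RPKM, and Ppargc1b, from 2.05 to 0.102 RPKM.

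The carnitine shuttle, which carries long acyl chains into mitochondria, is made up of the products of Cpt1a, Cpt2 and Slc25a20. Crat and Crot were grouped with these genes, and each of the 5 was read at a higher level in the tumour-bearing library. Cpt1a, whose product on the outer mitochondrial membrane makes acylcarnitine and controls the rate of entry, was at 25.4 RPKM in the control against 42.4 RPKM with a tumour, 1.67-fold higher (1.5 to 1.85). Cpt2, which turns acylcarnitine back into acyl-CoA at the inner membrane, was at 6.26 and 14.8 RPKM, from 79 and 189 reads, 2.37-fold higher (1.81 to 3.12). This was the only enzyme gene of the 28 at least 2-fold higher, and its interval reached below 2-fold. Slc25a20, the translocase that exchanges acylcarnitine for carnitine between the 2 enzymes, was at 23.8 and 29.5 RPKM, 1.24-fold higher (1.04 to 1.48). Its interval included 1 after centring on the median of all genes and after rescaling without Sftpc. Crat, carnitine acetyltransferase, was at 14.8 and 23.6 RPKM, 1.59-fold higher (1.39 to 1.82). Crot, the peroxisomal carnitine octanoyltransferase that readies shortened chains for export to mitochondria, was at 5.42 and 8.87 RPKM, 1.64-fold higher (1.23 to 2.19). The median log2 ratio of the 5 genes was 0.63. The other Cpt1 genes, named here after their values were seen, were far lower than Cpt1a in RPKM. Cpt1b was listed only in the tumour-bearing library, at 0.834 RPKM from 13 reads, and Cpt1c was at 0.467 and 0.198 RPKM.

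The acyl-CoA dehydrogenases make the opening step of each mitochondrial round, each on a range of chain lengths. Acadl, the long-chain enzyme, was the most abundant of them, at 86.7 RPKM in the control against 129 RPKM with a tumour, 1.48-fold higher (1.36 to 1.62). Acadm, the medium-chain enzyme, was at 25.4 and 33.8 RPKM, 1.33-fold higher (1.14 to 1.56). Acadvl, the very-long-chain enzyme, was at 58.1 RPKM in both libraries, and Acads, the short-chain enzyme, was at 14.4 and 12.3 RPKM with an interval of the ratio from 0.667 to 1.09. Acadl thus made up 47% of the summed RPKM of the 4 genes in the control against 55.2% with a tumour. Exons of Acadvl share 42.9% of their bases with exons of Dvl2 on the opposite strand, and the strand setting of the counting was not given in the sources used here, so the reads of Acadvl are uncertain.

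Electrons from these enzymes pass to the electron-transferring flavoprotein, a pair of subunits encoded by Etfa and Etfb. Etfa was at 29.4 RPKM in the control against 48.3 RPKM with a tumour, 1.64-fold higher (1.39 to 1.94). Etfb was at 80.9 and 127 RPKM, 1.57-fold higher (1.38 to 1.79). The 2 subunit genes kept nearly the same proportion, with Etfa at 0.364 of the RPKM of Etfb in the control against 0.38 with a tumour. Etfdh, the membrane dehydrogenase that takes the electrons on to ubiquinone, was at 15.5 and 18.7 RPKM, with an interval of the ratio from 0.99 to 1.47. A further transcript on the same strand, Gm45233, covers 53% of the exon bases of Etfb, so reads of the 2 genes cannot be told apart there.

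**Figure D3:**
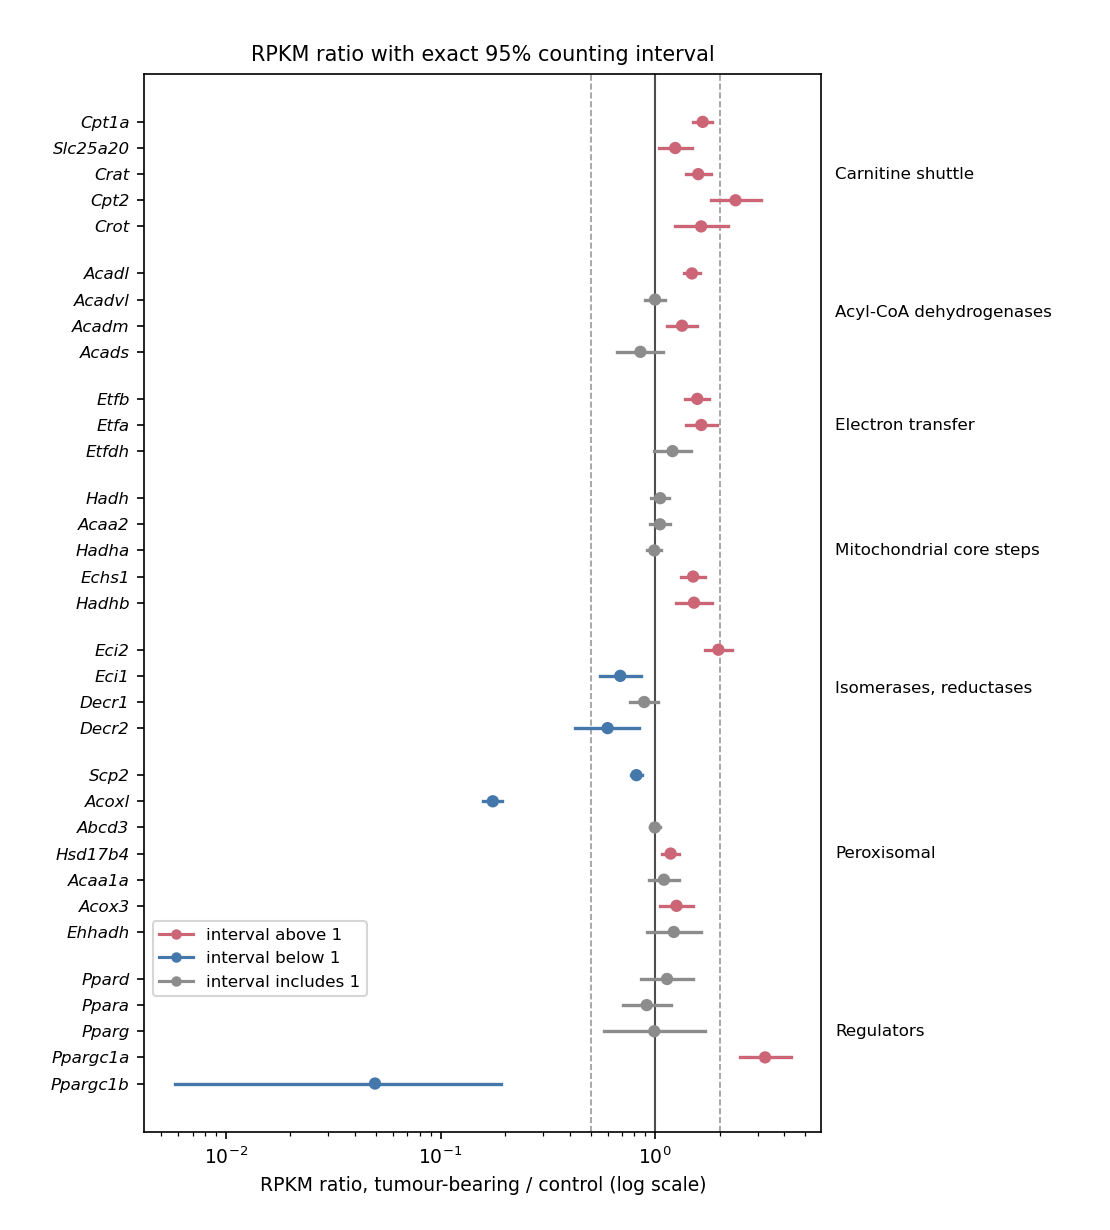
RPKM ratio of the tumour-bearing to the control library for the 33 genes on a log axis, with bars for the exact 95% counting interval and colour for its place relative to 1. Dashed lines mark 2-fold. All 5 intervals of the group labelled carnitine shuttle, with Crat and Crot in it, lie above 1. Those of Acoxl and Ppargc1b lie below 0.5.

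The remaining mitochondrial steps divided into genes at a like level in both libraries and genes about 1.5-fold higher. Echs1, the short-chain enoyl-CoA hydratase, was at 52.4 RPKM in the control against 78.8 RPKM with a tumour, 1.5-fold higher (1.33 to 1.71). Hadh, the short-chain hydroxyacyl-CoA dehydrogenase, was at 92.2 and 97.3 RPKM, and Acaa2, the mitochondrial thiolase, at 82.5 and 86.9 RPKM. The intervals of their ratios were 0.96 to 1.16 and 0.946 to 1.17.

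Hadha and Hadhb encode the alpha and beta subunits of the mitochondrial trifunctional protein, which carries out the later steps on long chains. They are neighbours on mouse chromosome 5 (Hadha from 30119423 to 30154980, Hadhb from 30155253 to 30184593 on mm10), pointing away from each other with 272 bases between their annotated starts. Hadha was at 64.8 RPKM in the control against 64.2 RPKM with a tumour, with an interval of the ratio from 0.918 to 1.07 that lay below 1 after rescaling without Sftpc. Hadhb was at 16.7 and 25.3 RPKM, from 175 and 268 reads, 1.52-fold higher (1.25 to 1.85). The 2 intervals did not overlap, and the RPKM ratio of Hadha to Hadhb was 3.88 in the control against 2.53 with a tumour. The stretch between the pair that no GENCODE exon covers is shown because both genes start beside it, and capitals mark CpG dinucleotides. It lies at chr5:30155163-30155247 on the plus strand of GRCm38, the assembly that mm10 denotes, from RefSeq's sequence.
Hadha-Hadhb: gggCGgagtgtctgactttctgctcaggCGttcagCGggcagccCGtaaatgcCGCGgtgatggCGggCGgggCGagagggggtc
It holds 9 CpG dinucleotides in 85 bases.

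The auxiliary enzymes, which move or remove double bonds of unsaturated chains, included members with intervals on both sides of 1. Eci2, an enoyl-CoA isomerase found in peroxisomes and mitochondria, was at 35.2 RPKM in the control against 69.3 RPKM with a tumour, from 305 and 607 reads, 1.97-fold higher (1.71 to 2.27). It lay just inside the 2-fold limit, with a log2 ratio of 0.96. Eci1, the mitochondrial isomerase, was at 34.9 and 24 RPKM, 1.45-fold lower (1.17 to 1.82), so the 2 isomerase genes were at a like level in the control against apart with a tumour. Decr2, the peroxisomal dienoyl-CoA reductase, was at 8.59 and 5.16 RPKM, 1.67-fold lower (1.19 to 2.36). Decr1, its mitochondrial counterpart, was at 22.6 and 20.1 RPKM, with an interval of the ratio from 0.764 to 1.03. That interval lay below 1 under each of the 3 scalings tried. Of the stretches of 50 bases in the longest Eci2 transcript, 15.8% also occur in transcripts of other genes.

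Acoxl, an acyl-CoA oxidase-like gene named for its likeness to the peroxisomal oxidases, had the lowest log2 ratio of the members. It lies on chromosome 2 (GeneID 74121, 127838797 to 128126252 on mm10). It was at 166 RPKM in the control against 29 RPKM with a tumour, from 2543 and 450 reads, 5.71-fold lower (5.16 to 6.32). By RPKM it ranked 322 among the 13932 genes of the control library and 2318 among the 14283 of the tumour-bearing library. Of all tested genes, 0.228% had a log2 ratio below that of Acoxl. No stretch of 50 bases of its longest transcript occurs in another gene's transcript.

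Acox3 and Acox2, which also encode acyl-CoA oxidases, had ratios above 1. Acox3, which acts on branched chains, was at 10.5 RPKM in the control against 13.2 RPKM with a tumour, 1.26-fold higher (1.05 to 1.51), and its interval included 1 after rescaling without Sftpc. Acox2, an oxidase of bile acid intermediates that is not a member, was at 3.86 and 9.88 RPKM, from 53 and 137 reads, 2.56-fold higher (1.85 to 3.59). The RPKM ratio of Acoxl to Acox3 was 15.8 in the control against 2.21 with a tumour.

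**Figure D4:**
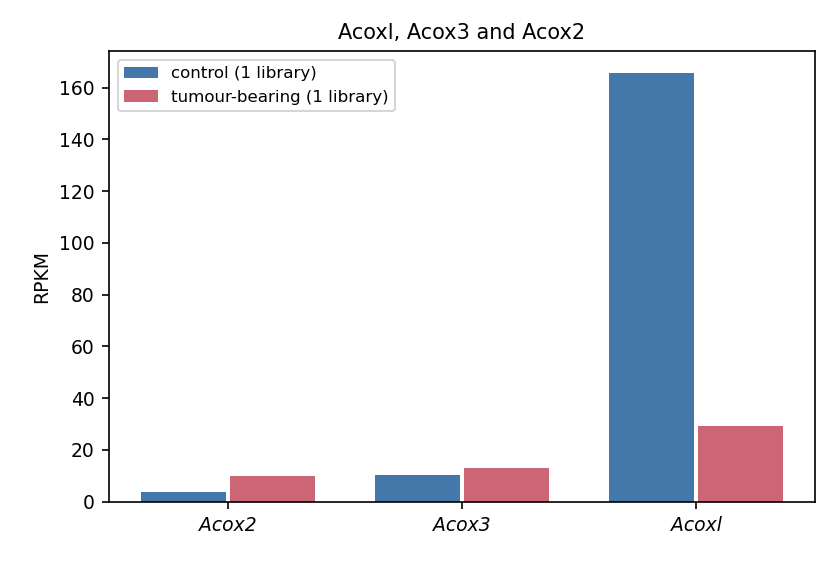
RPKM of Acox2, Acox3 and Acoxl in the control and the tumour-bearing library, 1 library each and so without error bars. The bar of Acoxl stands at 166 RPKM in the control and 29 RPKM with a tumour, while Acox3 stands at 10.5 and 13.2 RPKM.

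The later peroxisomal enzymes stayed within 2-fold. Abcd3, a transporter of acyl-CoA across the peroxisomal membrane, was at 148 RPKM in both libraries, with an interval of the ratio from 0.945 to 1.05. After rescaling without Sftpc that interval lay below 1. Scp2, which encodes a peroxisomal thiolase and a sterol carrier protein, had the highest RPKM of the members, at 191 RPKM in the control against 156 RPKM with a tumour, 1.22-fold lower (1.16 to 1.29). Hsd17b4, the peroxisomal enzyme that hydrates and dehydrogenates in turn, was at 64.6 and 76.3 RPKM, 1.18-fold higher (1.08 to 1.29), and its interval included 1 after rescaling without Sftpc. Ehhadh, the bifunctional enzyme of the straight-chain route, was at 5.6 and 6.85 RPKM. Acaa1a, the peroxisomal thiolase, was at 33.1 and 36.3 RPKM. The intervals of the last 2 ratios included 1, at 0.917 to 1.63 and 0.94 to 1.29. Copies make 2 of these values uncertain: 41.4% of the stretches of 50 bases of Scp2 occur in other genes' transcripts, foremost the pseudogene Scp2-ps2, and 16.2% of those of Acaa1a do, foremost in its paralog Acaa1b.

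The summed level of the peroxisomal group differed mostly through Acoxl. The 7 peroxisomal genes summed to 618 RPKM in the control against 465 RPKM with a tumour, and without Acoxl the other 6 summed to 453 and 436 RPKM. The 17 mitochondrial genes, which are the acyl-CoA dehydrogenase, electron transfer and later-step genes with Cpt1a, Cpt2, Slc25a20, Eci1 and Decr1, summed to 732 and 910 RPKM. Their median log2 ratio was 0.30, with 12 of 17 above 0, beside 53.8% of all tested genes.

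Among the 5 regulators, the 3 PPAR receptor genes were at a like level in both libraries and the 2 coactivator genes lay apart. Ppara was at 3.24 RPKM in the control against 2.96 RPKM with a tumour, Ppard at 5.9 and 6.7 RPKM, and Pparg at 3.03 and 3 RPKM. Their intervals of the ratio were 0.706 to 1.18, 0.864 to 1.5 and 0.577 to 1.7, the last from 30 reads in each library. Pparg is also expressed by alveolar macrophages and fat cells. Of the macrophage markers 5 and 6 of 10 were listed, summing to 15.6 and 51.9 RPKM, with Cd68 at 7.81 and 31.5 RPKM and Marco at 0 in both. Of the adipocyte markers 2 and 1 of 8 were listed, summing to 2.44 and 13.2 RPKM, with Fabp4 at 1.45 and 13.2 RPKM and Adipoq at 0 in both. Their part in the values of Pparg was not tested.

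Ppargc1a encodes a coactivator that promotes mitochondrial biogenesis and oxidation. It was at 2.14 RPKM in the control against 6.94 RPKM with a tumour, from 74 and 243 reads, 3.25-fold higher (2.5 to 4.28), and it was the only member whose whole interval lay past 2-fold on the higher side, against 6.27% of all genes. Ppargc1b, a related coactivator, was at 2.05 and 0.102 RPKM, from 40 and 2 reads. That is 20.2-fold lower, with an interval of 5.24 to 172 that reflects the 2 reads. The pair was read at nearly the same level in the control, at a Ppargc1a to Ppargc1b ratio of 1.04, and at a ratio of 68.4 in the tumour-bearing library. With Acoxl, Ppargc1b was 1 of 2 members whose whole interval lay past 2-fold on the lower side, against 3.74% of all genes. Whether either coactivator was read from epithelial cells or from stromal cells, whose summed markers were higher in the tumour-bearing library, was not tested.

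RefSeq's promoter windows, from 250 bases before to 50 bases after a start on GRCm38, were given for 28 of the 33 members, 31 windows in all. Most held many CpG dinucleotides, with a median of 17 beside 7 over all 32851 windows. Of the member windows, 3 held 5 or fewer, against 43.6% of all windows: that of Acoxl with 2, that of Ppargc1a with 5 and 1 of the 3 windows of Pparg with 2. This limit was chosen after the counts were seen. Acoxl and Ppargc1a, the members with the lowest and the highest log2 ratio, were thus both among those with the fewest CpG dinucleotides. Cpt2, also at least 2-fold higher, held 17, and Ppargc1b, at least 2-fold lower, had no window. A relation between CpG count and ratio was not tested. The upstream parts of both windows are shown with those of Cpt1a and Cpt2 for comparison, 5′ to 3′ on the strand of the gene, without bases that a GENCODE exon covers and with CpG dinucleotides in capitals. They lie at chr2:127854378-127854627 on the plus strand for Acoxl, chr5:51567727-51567975 on the minus strand for Ppargc1a, chr19:3323051-3323284 on the plus strand for Cpt1a and chr4:107923611-107923839 on the minus strand for Cpt2. The annotated spans of Acoxl, Ppargc1a and Cpt1a begin outside these windows.
Acoxl: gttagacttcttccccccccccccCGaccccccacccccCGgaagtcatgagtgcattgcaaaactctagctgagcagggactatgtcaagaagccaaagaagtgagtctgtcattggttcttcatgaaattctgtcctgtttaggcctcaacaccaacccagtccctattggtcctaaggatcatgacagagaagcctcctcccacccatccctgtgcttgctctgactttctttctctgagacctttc
Ppargc1a: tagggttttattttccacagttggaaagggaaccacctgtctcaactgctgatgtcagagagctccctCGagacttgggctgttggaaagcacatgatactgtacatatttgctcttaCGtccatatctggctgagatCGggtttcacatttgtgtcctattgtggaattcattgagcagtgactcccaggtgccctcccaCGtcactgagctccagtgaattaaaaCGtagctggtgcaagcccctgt
Cpt1a: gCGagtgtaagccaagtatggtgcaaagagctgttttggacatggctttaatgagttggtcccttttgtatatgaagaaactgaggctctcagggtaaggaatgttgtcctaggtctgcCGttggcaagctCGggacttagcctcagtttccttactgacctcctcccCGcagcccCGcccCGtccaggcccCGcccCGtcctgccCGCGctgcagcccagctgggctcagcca
Cpt2: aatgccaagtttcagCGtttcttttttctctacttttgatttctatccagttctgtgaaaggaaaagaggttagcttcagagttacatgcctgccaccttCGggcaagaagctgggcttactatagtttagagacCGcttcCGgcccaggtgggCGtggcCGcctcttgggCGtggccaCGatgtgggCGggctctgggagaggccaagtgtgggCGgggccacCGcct
The printed stretches hold 2, 5, 10 and 11 CpG dinucleotides.

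Motifs of regulators of this pathway were searched for on both strands of the 31 windows as exact letters. The nuclear receptor half-site AGGTCA, which is part of the 2 elements named next, was in 7 windows of 6 members (Acadm, Acadvl, Cpt1a, Echs1, Pparg and Scp2), 22.6% against 16.3% of all windows. In Cpt1a it lay 94 bases before the start on the opposite strand. The PPAR element, taken as that half-site repeated directly with any 1 base between, was in 0 member windows and in 0.0396% of all windows. The estrogen-related receptor element TCAAGGTCA and the cyclic AMP element TGACGTCA were in 0 member windows, against 0.423% and 1.79% of all windows. A window without these letters says nothing about binding of the factor. None of these letters was in the printed window of Acoxl, Ppargc1a or Cpt2.

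Genes around the pathway were read from 7 further lists of 138 genes in all, 109 of them tested. At the 2-fold limit 16 of these were higher in the tumour-bearing library and 9 lower, against 9.38% and 6.53% of all tested genes, the same background for each list that follows, with a median log2 ratio of -0.05. Among PPAR partners and targets, 5 of 28 tested genes were higher and 1 was lower, and the median was -0.06. Angptl4, a secreted inhibitor of lipoprotein lipase, was at 5.28 and 26 RPKM, 4.92-fold higher (3.66 to 6.71). Pdk4, a kinase that restrains the use of pyruvate, was at 6.13 and 20.2 RPKM, 3.29-fold higher (2.66 to 4.09), and Klf15, a transcription factor of fasting metabolism, at 19 and 50.7 RPKM. Hilpda, a lipid droplet protein and inhibitor of lipolysis, was the lower gene, at 11.6 and 2.83 RPKM.

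The lists of fat release and fat uptake held large differences in single genes. Of 12 tested genes of lipolysis and the lipid droplet, 3 were at least 2-fold higher and 0 lower, with a median of 0.26. The 3 were G0s2, Lipe and Cideb, the last named after its values were seen, at 0.474 and 2.97 RPKM from 3 and 19 reads. Pnpla2, adipose triglyceride lipase, was at 114 RPKM in the control against 228 RPKM with a tumour, just inside the limit with a log2 ratio of 0.99. Its protein inhibitor G0s2 was at 2.88 and 13.1 RPKM, and Lipe, hormone-sensitive lipase, at 6.23 and 14.2 RPKM. Plin3, a lipid droplet coat protein, was 1.65-fold lower (1.48 to 1.84). Among 14 tested genes of uptake and activation, 2 were higher and 2 lower, with a median of -0.07. Fabp5, a fatty acid-binding protein of epithelia, was at 287 and 138 RPKM, 2.09-fold lower (1.91 to 2.28). Fabp4, a binding protein of fat cells, macrophages and capillary endothelium, was at 1.45 and 13.2 RPKM, beside endothelial markers that summed to 33.2 and 156 RPKM. Dbi, the acyl-CoA-binding protein, and Slc27a4, a fatty acid transporter, were 1.5-fold (1.36 to 1.67) and 1.51-fold (1.24 to 1.85) higher.

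A further list held other oxidation genes, most of which serve branched-chain amino acids, thioester hydrolysis or minor routes. It is mainly but not wholly mitochondrial, since it also holds Nudt7. Of these genes, 2 of 22 tested had a log2 ratio above 0, beside 53.8% of all tested genes. Their median was -0.23, with 1 gene past 2-fold on the higher side and 2 on the lower. Acot7, an acyl-CoA thioesterase, was at 449 and 190 RPKM, 2.36-fold lower (2.22 to 2.51), while Acot9, a mitochondrial thioesterase, was at 6.3 and 18.8 RPKM. Nudt7, a hydrolase that cleaves coenzyme A in peroxisomes, was at 10.5 and 4.25 RPKM, and Hibch, an enzyme of valine breakdown, at 15.5 and 7.88 RPKM. The median of the 33 oxidation genes and that of this list thus lay on opposite sides of 0.

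Among 13 tested genes of other peroxisomal metabolism the median was 0.02, with 1 gene higher and 2 lower. Cat, catalase, which removes the hydrogen peroxide that the oxidases make, was at 553 RPKM in the control against 197 RPKM with a tumour, 2.81-fold lower (2.69 to 2.94). Acot8, a peroxisomal thioesterase, was 2.88-fold lower (1.95 to 4.37), and Phyh, which starts the breakdown of phytanic acid, was 1.75-fold higher (1.44 to 2.13). The peroxins, which build peroxisomes, had a median of 0.10 over 16 tested genes, with 2 higher and 1 lower. Pex26 was at 1.01 and 6.91 RPKM, Pex11a, a factor of peroxisome division, at 6.4 and 15.4 RPKM, Pex2 at 9.74 and 14.5 RPKM, and Pex6 at 25.7 and 11.8 RPKM. Of 5 tested ketone body genes 2 were at least 2-fold higher and 1 was lower, with a median of -0.46. Oxct1, which starts ketone use, was at 67.6 and 32.4 RPKM, 2.09-fold lower (1.89 to 2.3), and Acat1, a mitochondrial thiolase, was at 28.6 and 20.5 RPKM.

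**Figure D5:**
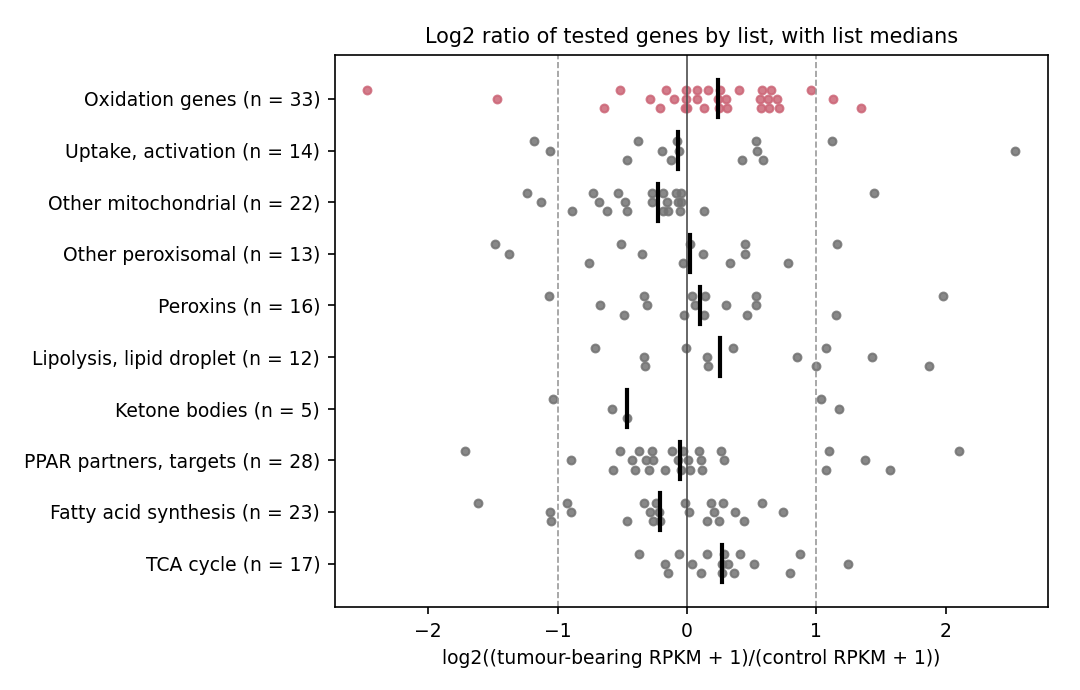
Log2((tumour-bearing RPKM + 1)/(control RPKM + 1)) of each tested gene in the oxidation genes, the 7 lists around them, fatty acid synthesis and the TCA cycle, with a black bar for each list's median and dashed lines at 2-fold. The median is 0.24 for the oxidation genes and 0.27 for the TCA cycle, and -0.21 for fatty acid synthesis.

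Beside the oxidation genes stand the list of the pathway that builds fatty acids and that of the cycle that burns their product. Of 23 tested genes of fatty acid synthesis 10 had a log2 ratio above 0, beside 53.8% of all tested genes, with a median of -0.21, with 3 genes past 2-fold on the lower side and 0 on the higher. Fads2, a desaturase, was 3.23-fold lower (2.57 to 4.09), and Elovl1, an elongase of very long chains, was at 1002 and 480 RPKM. Fads1 was at 114 and 54.4 RPKM and Acly, which supplies cytosolic acetyl-CoA, at 213 and 111 RPKM. These 4 lower genes do not stand for the whole list. Outside the naming rule, Fasn was at 399 and 473 RPKM, 1.19-fold higher (1.16 to 1.21). Acaca was at 51.9 and 57.9 RPKM, 1.12-fold higher (1.06 to 1.18). Of the 22 tested synthesis genes with recovered reads, 7 had an interval wholly above 1 and 10 wholly below 1. Of 17 genes of the TCA cycle 13 had a log2 ratio above 0, with a median of 0.27. Fh1, fumarase, was 2.43-fold higher (2.07 to 2.85), and Idh3a, Mdh2 and Sdhb were 1.89-fold, 1.74-fold and 1.44-fold higher. The difference between these lists and the oxidation genes has no replicate check.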

How the data were processed

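Messenger RNA was sequenced in 1 control and 1 tumour-bearing library. Trimmomatic and the mm10 build were used, per the submitters' processing notes, without versions; the aligner, counting tool, annotation and strand setting were not given in the sources used here. For each library, the authors deposited 1 table of RPKM, per the file headers. Values were compared as deposited, and genes listed in 1 table counted as 0 RPKM in the other. Sftpc made up 18.6% of the summed RPKM in the control against 11.2% with a tumour. These are shares of RPKM and not of reads, and the reads of Sftpc were not recovered. Since RPKM is scaled to reads, they do not give how far Sftpc lowers the values of other genes. The rescaling without Sftpc rests on these shares.

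Whole reads were recovered from the digits with Python 3.11.15, numpy 2.4.6 and scipy 1.17.1. Each library's total was the largest of the numbers at which many low rows, taken as single reads, gave a GENCODE M21 transcript length. It was given by 47 and 67 rows, against 2 for the next number in each. Simple fractions and multiples of the total were left out of that comparison. A gene's reads then followed from a whole length (within 0.02 base) and from the rows, which run from most to fewest reads. Reads were recovered for 15071 of 15113 genes (99.72%) and all 33 members. The length equalled a GENCODE transcript's for 2 of the 33. The totals are estimates of this work. The procedure was tested on simulated data.

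Ratios were taken as log2((RPKM + 1)/(RPKM + 1)) for genes that reached 1 RPKM in either library, which understates low genes, and folds are direct ratios. Intervals are 95% intervals of the read ratio, by the exact Clopper-Pearson method on the split of reads between the libraries. PCR reads without molecular identifiers are not independent molecules. With 1 library per group, 2-fold served as a size rule. All members could be named, and of each other list up to 4 genes that reached 5 RPKM, those with the largest log2 ratios of either sign. The members and lists were chosen with earlier results of these data known. Gene positions and promoter windows are RefSeq's for GRCm38.p6. Some genes that the naming rule gives are not reported here.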

Additional observations from a re-analysis of the deposited data

How the results depend on the processing

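Alternatives were pseudocounts of 0.1 and 5, trimmed-mean scaling, centring on the median of tested genes, rescaling without Sftpc, filters at 0 and at 5 RPKM, a 1.5-fold limit and counting intervals wholly past 2-fold. The number of members at least 2-fold higher was 2, and it was 0 with a pseudocount of 5, 8 at 1.5-fold and 1 by whole intervals. The number at least 2-fold lower was 2, and it was 1 with a pseudocount of 5 and 1 with a filter at 5 RPKM, which leaves Ppargc1b out. The median of the regulators was -0.01, and 0.75 with that filter, which leaves 2 of them. The median of all members stayed between 0.11 and 0.25 under these settings. No value of 2-fold or more changed sign. No paired analysis was possible because each group held 1 library, and no library could be left out. Depth limits Ppargc1b, with 2 reads in the tumour-bearing library, and Pparg, with 30 reads in each.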
